A study of Mus musculus with 24 samples.

Results

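The 10 core circadian clock genes Arntl, Clock, Npas2, Per1, Per2, Per3, Cry1, Cry2, Nr1d1 and Nr1d2 were followed in the livers of 24 male BALB/c mice, each hybridised to 1 Affymetrix 3' expression array. They were found through the platform annotation, as probe sets that list 1 of these symbols and no other. This gave 23 of 45101 probe sets and 10 of 18194 genes with such a probe set. Each of the 4 groups had 6 mice. Control mice were untreated and ate the purified AIN93G diet. STZ mice had been injected intraperitoneally with 185 mg/kg streptozotocin, a toxin of the insulin-producing beta cells, and ate the same diet. The other groups received streptozotocin and then the diet with 0.1% or 0.5% quercetin, a plant flavonol, for 14 days. All mice were 6 weeks old on arrival, were caged in threes and lived in a 12-hour photocycle with darkness from 0800 to 2000, per the labels. Diabetic mice were picked for a non-fasting glucose of 230 to 400 mg/dL. The labels tie no mouse to a cage, so p-values measure the spread between mice with cages unaccounted for. The time of killing is not given in the sources used here. A replicate number from 1 to 6 ends each title, and what it marks is not stated.

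In the mammalian clock, BMAL1 (encoded by Arntl) pairs with CLOCK or NPAS2 and activates genes that carry an E-box. Among these genes are the Period and Cryptochrome genes, whose proteins return to inhibit the activators, and Nr1d1 and Nr1d2, whose REV-ERB proteins compete with ROR receptors and repress Arntl and Npas2. In liver the loop makes these transcripts rise and fall each day, with Arntl and Npas2 roughly opposite to the REV-ERB and Period genes, and feeding time can reset it.

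Promoter sequences of these genes were searched for the letters of known short elements. RefSeq windows of the GRCm38.p6 build were held for 9 of the 10 genes, in 13 windows, Per2 being the exception. The E-box CACGTG, bound by BMAL1 with CLOCK or NPAS2, was found on either strand of the 250 bases before the start in 2 of the 13 windows, those of Per1 and Cry1, against 6.02% of all 32851 windows. The D-box TTANGTAA, bound by DBP and by its competitor NFIL3, was found in 1 of 13 windows against 2.06% of all windows, with 2 matches in Per3. The short pattern TNGGTCA, searched as a loose core of the ROR element, matched 4 of 13 windows against 9.19%, namely 1 of Per3, 1 of Cry2 and both of Arntl, which overlap and hold the same matches. The cyclic AMP response element TGACGTCA matched 0 of 13 windows against 1.55% of all. A match is a string of letters and not a measured binding site. The pair of promoters with an E-box and the one with D-boxes are shown first, written 5′ to 3′ on the gene's strand with E-box or D-box letters in capitals. They are Per1 at chr11:69098699-69098948 (plus strand), Cry1 at chr10:85185055-85185304 (minus strand) and Per3 at chr4:151044666-151044915 (minus strand).

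Per1: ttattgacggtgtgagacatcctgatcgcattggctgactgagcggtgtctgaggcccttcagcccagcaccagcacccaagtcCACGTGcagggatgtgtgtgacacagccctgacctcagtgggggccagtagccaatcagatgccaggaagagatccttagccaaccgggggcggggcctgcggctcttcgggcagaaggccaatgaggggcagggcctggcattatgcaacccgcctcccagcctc

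Cry1: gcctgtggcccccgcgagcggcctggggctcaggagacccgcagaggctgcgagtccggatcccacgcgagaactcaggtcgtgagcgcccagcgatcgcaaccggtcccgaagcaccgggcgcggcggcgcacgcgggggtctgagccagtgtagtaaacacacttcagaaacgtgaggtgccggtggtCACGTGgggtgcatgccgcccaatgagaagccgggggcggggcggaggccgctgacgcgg

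Per3: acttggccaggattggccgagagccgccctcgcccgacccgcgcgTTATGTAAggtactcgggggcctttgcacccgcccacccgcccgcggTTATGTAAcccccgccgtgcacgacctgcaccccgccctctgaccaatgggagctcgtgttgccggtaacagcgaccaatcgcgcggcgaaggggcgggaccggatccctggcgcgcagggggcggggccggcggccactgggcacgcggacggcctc

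The E-box began 166 bases before the start in Per1 and 60 bases before it in Cry1, and the D-boxes of Per3 began 205 and 158 bases before the start. A longer form of the ROR and REV-ERB element, AGTAGGTNA, was searched after the windows had been seen, in whole windows of 300 bases. It was present in 0.591% of the 32851 windows and in 2 of the 13 windows here, both of them Arntl and overlapping, so that 1 promoter is counted in each. The 2 sites of Arntl, shown because they are the letters that REV-ERB and ROR proteins are known to bind, lay at chr7:113207492-113207521 and chr7:113207528-113207557 on the plus strand, 8 bases before and 28 bases after an annotated start. The element is in capitals.

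Arntl site 1: attggtcggaaAGTAGGTTAgtggtgcgac

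Arntl site 2: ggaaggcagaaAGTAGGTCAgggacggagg

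Levels are given as log2(quantile normalized intensity + 16), a scale whose floor is 4. They compare mice within a gene and not one gene with another. All 10 genes passed the filter on low values and were tested among 13114 genes. Mean intensity per array, as deposited, lay between 61.0 and 102 units, and correlations between arrays lay between 0.964 and 0.989. Of the 6 hepatocyte markers fixed as a list, 5 were on the arrays, with a median percentile of 99.98 among probe sets, and in the bulk RNA used here fewer cells of a type cannot be told apart from less RNA per cell. The Gapdh 3' minus 5' log2 difference, a measure of RNA integrity, was -0.04 ± 0.17 (SD, n = 6) in controls, -0.34 ± 0.10 in STZ mice, -0.32 ± 0.15 with 0.1% and -0.21 ± 0.17 with 0.5% quercetin. Summed intensities of the 5 Kupffer cell markers ranged from 553 to 729 in controls, 788 to 1005 in STZ mice, 813 to 1044 with 0.1% and 534 to 922 with 0.5% quercetin, and 2 of them passed between STZ and control. Those of B cell markers, of which 1 passed, ranged from 123 to 273, 25.2 to 71.4, 30.2 to 74.1 and 40.8 to 221 in the same order of groups. Those of exocrine pancreas markers, of which 1 passed, ranged from 475 to 647, 168 to 261, 159 to 299 and 199 to 560. Of the 4 stellate cell markers 1 passed, with overlapping sums of 521 to 663 in controls and 608 to 791 in STZ mice. The Gapdh difference was used as a covariate in an alternative fit. Beyond that fit, the part of RNA integrity and of these other cells in the group comparisons was not tested.

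The first question was whether streptozotocin or quercetin altered the clock genes. At an adjusted p under 0.05 in limma, 0 of the 10 clock genes passed between STZ and control mice, against 3.72% of all genes tested. Between each quercetin group and STZ mice, 0 of 10 passed against 0% of all genes, and likewise between the doses. In the 0.1% group against controls 0 of 10 passed against 5.57%, and in the 0.5% group against controls 0 of 10 passed against 0.13%. At an unadjusted p under 0.05 the counts were 1 of 10 for STZ against control (16.7% of all genes), 4 of 10 for 0.1% quercetin against STZ (5.24%) and 2 of 10 for 0.5% quercetin against STZ (7.51%). They were 2 of 10 between the doses (8.34%), 1 of 10 for 0.1% quercetin against control (18.9%) and 1 of 10 for 0.5% quercetin against control (12.3%). The median log2 difference of the clock genes was 0.10 for STZ against control, 0.00 for 0.1% quercetin against STZ and -0.15 for 0.5% quercetin against STZ, beside medians of all genes of -0.02, 0.01 and 0.00. A moderated F test over the 4 groups passed for 1 clock gene, Cry2, against 3.29% of all genes, and 3 of 10 were under an unadjusted p of 0.05 (16.3%).

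**Figure D1:**
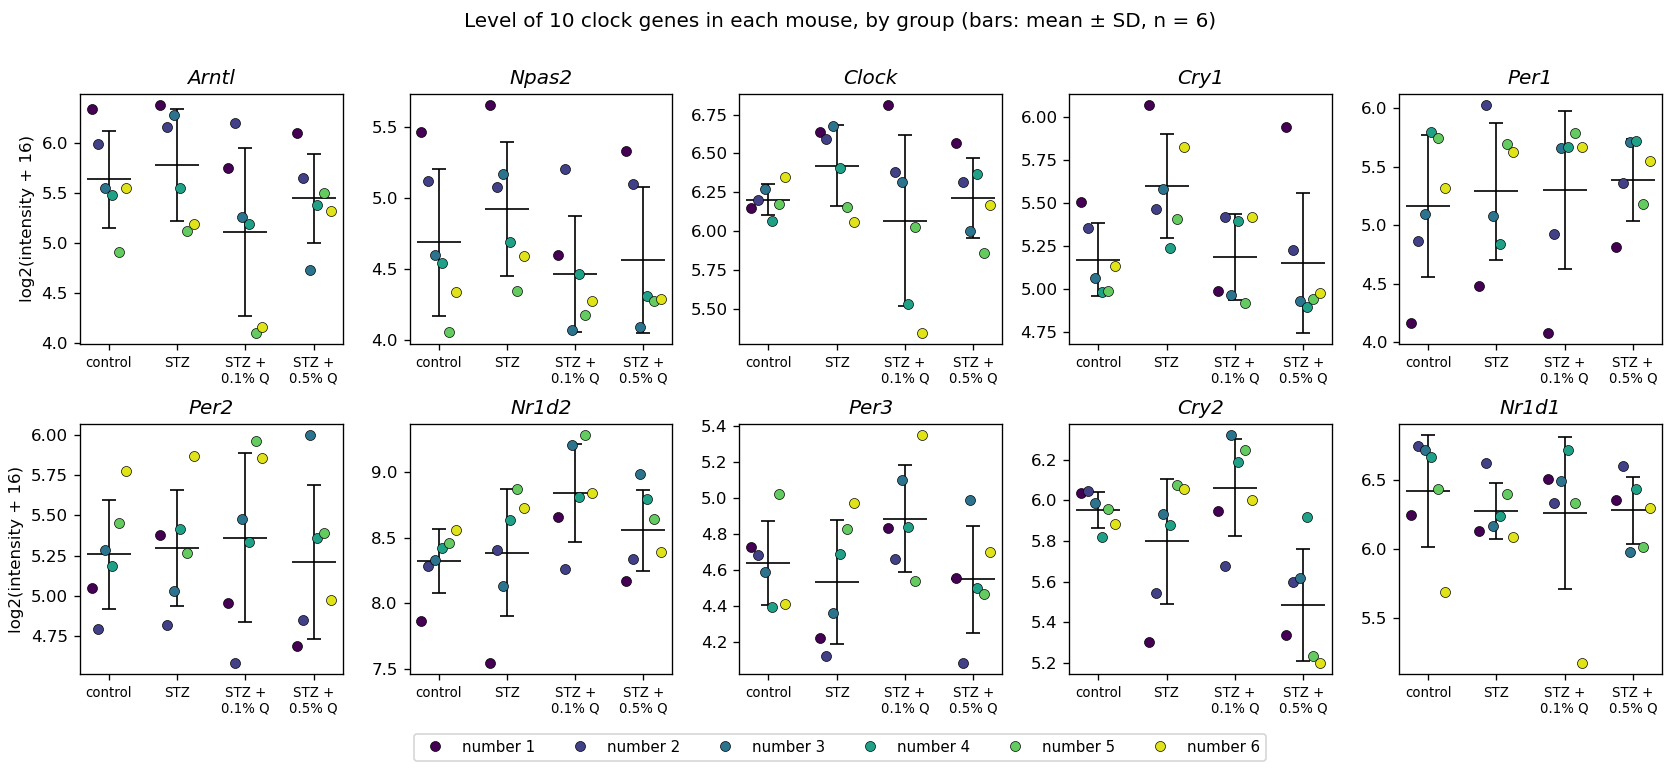
Level of each clock gene, as log2(intensity + 16), in each of the 24 mice (points, coloured by replicate number) by group, with bars at the mean ± SD of 6 mice (Q, quercetin). Groups overlap for every gene, the lowest Cry2 levels are in the 0.5% quercetin group, and numbers 1 and 2 hold most of the highest Arntl and Npas2 levels.

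Arntl encodes the obligate activator BMAL1. In controls its level had a lowest, median and highest value of 4.91, 5.55 and 6.34, in STZ mice 5.12, 5.86 and 6.38, with 0.1% quercetin 4.10, 5.23 and 6.20, and with 0.5% quercetin 4.73, 5.44 and 6.10. The ranges overlapped in every comparison, and the lowest values of all, 4.10 and 4.16, were those of 0.1% quercetin replicates 5 and 6. The log2 difference of 0.1% quercetin from STZ was -0.67 (SE 0.31, 95% confidence interval -1.30 to -0.04), with an adjusted p of 0.927 in limma. For STZ against control it was 0.15 (interval -0.48 to 0.78, adjusted p = 0.865).

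Npas2, the partner of BMAL1 that can stand in for CLOCK, had medians of 4.57, 4.89, 4.37 and 4.30 in control, STZ, 0.1% and 0.5% quercetin mice, and 4 of 6 mice on 0.5% quercetin lay below all STZ mice. Its log2 difference from STZ was -0.46 (interval -0.96 to 0.05) with 0.1% and -0.36 (interval -0.86 to 0.15) with 0.5% quercetin, and neither passed (adjusted p = 0.938 and 0.777 in limma). Clock, the other partner, ranged from 6.06 to 6.35 in controls and from 5.35 to 6.81 with 0.1% quercetin. The levels of 4 of 6 STZ mice exceeded the highest control, and 1 lay below the lowest. Its difference between STZ and control was 0.22 (interval -0.14 to 0.58, adjusted p = 0.585 in limma).

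Cry1 encodes the stronger of the pair of cryptochrome repressors in most assays of the clock. Its lowest, median and highest levels were 4.98, 5.10 and 5.51 in controls, 5.24, 5.52 and 6.07 in STZ mice, 4.92, 5.19 and 5.42 with 0.1% and 4.90, 4.96 and 5.94 with 0.5% quercetin. STZ mice were the highest group by median, and 5 of 6 mice on 0.5% quercetin lay below all STZ mice. Replicate 1 of the 0.5% group, at 5.94, stood apart from the other 5, which lay between 4.90 and 5.22. The STZ mean exceeded the control mean by 0.43 (SE 0.16, interval 0.10 to 0.75, adjusted p = 0.152 in limma). The 0.1% and 0.5% quercetin means lay below the STZ mean by log2 differences of -0.41 (interval -0.74 to -0.09, adjusted p = 0.885) and -0.45 (interval -0.77 to -0.12, adjusted p = 0.572). All of these share the STZ mice, and none passed.

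Cry2, the second cryptochrome, was the clock gene whose F test over the 4 groups passed (F = 7.25, adjusted p = 0.0379 in limma). Its lowest, median and highest levels were 5.82, 5.97 and 6.04 in controls, 5.31, 5.91 and 6.07 in STZ mice, 5.68, 6.09 and 6.32 with 0.1% and 5.20, 5.47 and 5.92 with 0.5% quercetin. The 0.5% group was the lowest, with 5 of its 6 mice below all controls and below all mice of the 0.1% group. Its lowest levels, 5.24 and 5.20, were those of replicates 5 and 6. Those 2 mice had Gapdh differences of -0.06 and 0.01, beside means of -0.21 in their group and -0.04 in controls. Their Cdkn1a levels, given below, lay under those of all STZ mice. No single pair of groups passed over all genes. The 0.5% group differed from the 0.1% group by -0.58 (SE 0.13, interval -0.85 to -0.31, adjusted p = 0.308), from controls by -0.47 (SE 0.13, adjusted p = 0.134) and from STZ mice by -0.31 (SE 0.13, adjusted p = 0.587). Leaving out 1 mouse at a time gave adjusted p-values of the F test from 0.0122 to 0.0883, and the call was lost in 13 of 24 cases, namely without any 1 of the 6 controls, without 0.1% quercetin replicate 3, 4, 5 or 6, or without 0.5% quercetin replicate 1, 5 or 6. With the Gapdh 3' minus 5' difference as a covariate the adjusted p was 0.173, and on the values as deposited it was 0.375. Without 0.5% quercetin replicates 5 and 6 together it was 0.181.

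Among the Period genes, whose proteins carry the delayed feedback, the levels did not separate the groups. Per1 had medians of 5.21, 5.35, 5.67 and 5.46 in control, STZ, 0.1% and 0.5% quercetin mice and group ranges that overlapped throughout, with a log2 difference of STZ from control of 0.12 (interval -0.47 to 0.72) in limma. Per2 had medians of 5.23, 5.32, 5.41 and 5.17, with a difference of 0.04 (interval -0.42 to 0.50). Per3, which is dispensable for rhythm in mice, had medians of 4.64, 4.53, 4.84 and 4.53. Its 0.1% quercetin mean exceeded the STZ mean by 0.35 (SE 0.16, interval 0.03 to 0.68, adjusted p = 0.911 in limma).

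The REV-ERB genes encode the repressors of Arntl. Nr1d2 (REV-ERB beta) had a lowest, median and highest level of 7.86, 8.38 and 8.56 in controls, 7.55, 8.52 and 8.87 in STZ mice, 8.26, 8.83 and 9.28 with 0.1% and 8.17, 8.52 and 8.98 with 0.5% quercetin. In the 0.1% group 5 of 6 mice lay above all controls, a mean difference of 0.53 (SE 0.19, interval 0.14 to 0.91, adjusted p = 0.107 in limma), which did not pass. Without 0.1% quercetin replicate 2 it was 0.64 and passed, with an adjusted p of 0.0385. With the mean of both probe sets it was 0.44 and passed, with an adjusted p of 0.0489. A fit with replicate number as a block also passed. The other 33 alternatives did not, with adjusted p-values up to 0.565. Nr1d1 (REV-ERB alpha) had medians of 6.55, 6.20, 6.41 and 6.32 in the same order of groups, and its differences from STZ were -0.01 (interval -0.41 to 0.38) with 0.1% and 0.0063 (interval -0.39 to 0.41) with 0.5% quercetin. Its lowest level, 5.18, was that of 0.1% quercetin replicate 6. Nr1d1 overlaps Thra and Per3 overlaps Uts2 in the RefSeq gene table, and the strand and position of their probes were not examined.

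**Figure D2:**
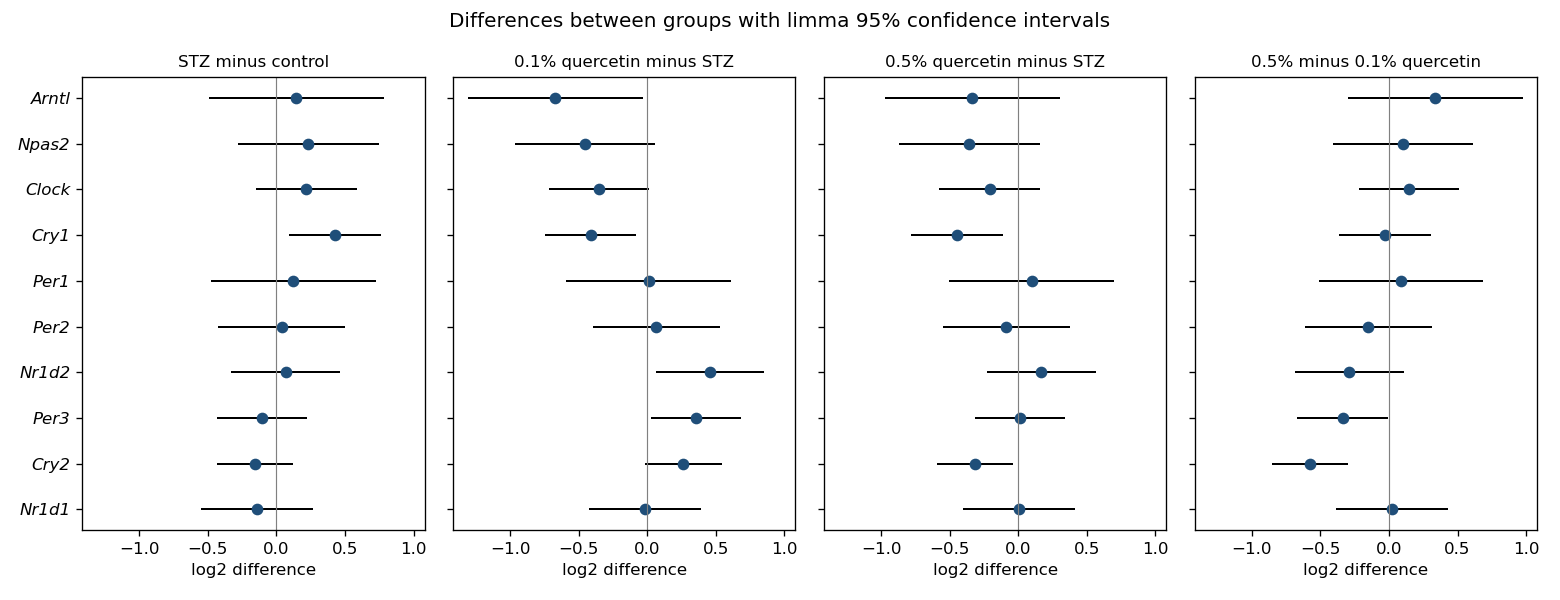
Log2 differences between groups for the 10 clock genes (points) with limma 95% confidence intervals (lines), not adjusted for the number of genes, in 4 comparisons on 1 shared axis. The Cry2 interval for 0.5% against 0.1% quercetin, -0.85 to -0.31, lies farthest from 0, and no difference passed after adjustment over 13114 genes.

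The clock genes stood high among all genes in their spread between mice of 1 group. The within-group SD, pooled over the 4 groups, was 0.61 log2 units for Arntl, the 99.5th percentile of all genes tested, 0.57 for Per1 (99.3rd percentile) and 0.48 for Npas2 (98.8th percentile). It was lowest for Cry2, at 0.24 (80.4th percentile). The median SD of the 10 genes was 0.37, beside 0.19 for all genes. Part of this spread followed the replicate number. For Npas2, 79.4% of the within-group sum of squares lay between replicate numbers, for Arntl 66.6%, for Per1 64.1%, for Nr1d2 59.1%, for Per2 57.6%, for Nr1d1 51.1%, for Cry1 48.7% and for Clock 42.3%. For Per3 and Cry2 the shares were 30.7% and 27.2%, near the median of all genes, 23.5%. The median of the 10 genes was 54.3%, and 5 of the 10 genes lay above the 95th percentile of all genes, 51.8%.

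**Figure D3:**
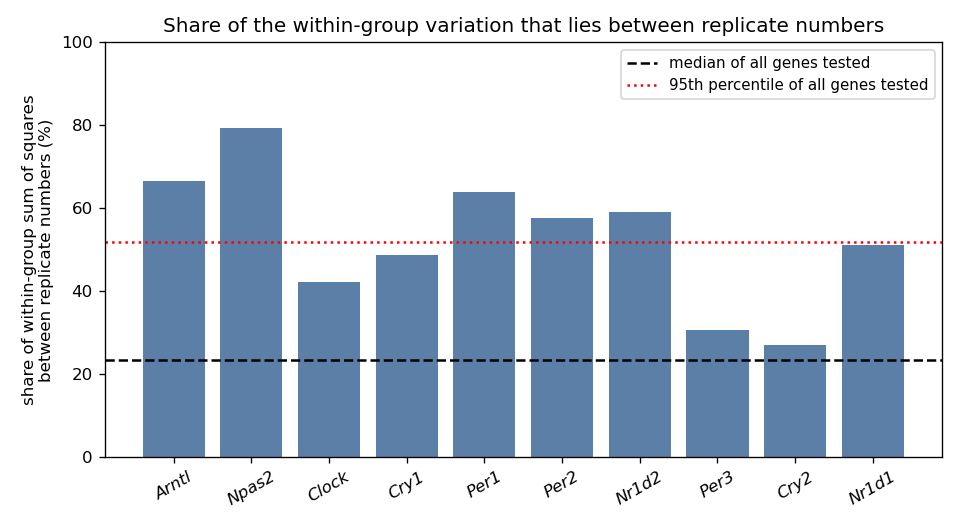
Share of the within-group sum of squares, in percent, that lies between the 6 replicate numbers for each clock gene (bars), with the median (dashed line, 23.5%) and the 95th percentile (dotted line, 51.8%) of all 13114 genes tested. Npas2 has the highest bar at 79.4% and Cry2 the lowest at 27.2%.

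The next comparison asked whether mice with the same number in their titles shared clock gene levels across the 4 groups. The fit had group and number as terms. This comparison and the genes were chosen with earlier results of these data known, so its counts and p-values are not an independent test. Of the 10 clock genes, 1 passed at an adjusted p under 0.05 in limma, Npas2 (F = 13.6, adjusted p = 0.0266), against 0.0458% of all genes, which is 6 genes. At an unadjusted p under 0.05, 8 of 10 clock genes were counted against 6.33% of all genes, and Per3 and Cry2 were the exceptions. Each of these 8 is described next, from the activators to the repressors.

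In the order control, STZ, 0.1% and 0.5% quercetin, Npas2 stood at 5.47, 5.66, 4.60 and 5.33 in the mice numbered 1 and at 5.12, 5.08, 5.20 and 5.10 in those numbered 2. It stood at 4.05, 4.34, 4.18 and 4.28 in those numbered 5 and at 4.34, 4.59, 4.28 and 4.29 in those numbered 6. All 8 mice numbered 1 or 2 were above the mean of their group, all 8 numbered 5 or 6 were below it, and the levels of the former (4.60 to 5.66) lay above those of the latter (4.05 to 4.59). The nearest levels of these sets were 4.598 (0.1% quercetin replicate 1) and 4.595 (STZ replicate 6). The highest and the lowest of the number means differed by 1.05, or 2.07-fold. The low levels lay near the floor of 4, so this fold depends on the constant of 16. In limma the call was lost in 7 of 10 other settings, with adjusted p-values up to 0.255 (a constant of 1). The call was lost in 12 of 24 cases when 1 mouse was left out, namely without control replicate 1, 2 or 6, STZ replicate 1, 5 or 6, 0.1% quercetin replicate 2, 5 or 6, or 0.5% quercetin replicate 1, 2 or 5, with adjusted p-values from 0.00293 to 0.0932 over the 24 fits.

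The same numbers were high and low in Arntl. It stood at 6.34, 6.38, 5.76 and 6.10 in mice numbered 1 and at 5.99, 6.16, 6.20 and 5.65 in those numbered 2, against 4.91, 5.12, 4.10 and 5.51 in those numbered 5 and 5.55, 5.20, 4.16 and 5.32 in those numbered 6. All 8 mice numbered 1 or 2 were above their group mean and 7 of 8 numbered 5 or 6 were below it, the exception being 0.5% quercetin replicate 5. The means of numbers 1 and 5 differed by 1.23, or 2.35-fold, and the F test over all numbers did not pass over all genes (F = 7.95, adjusted p = 0.145 in limma). Without 0.5% quercetin replicate 3 it passed, with an adjusted p of 0.0494. Clock had its highest mean in number 1 and its lowest in number 6, 0.56 apart (adjusted p = 0.769), and the 4 mice numbered 5 were all below their group means.

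Cry1 also had its highest mean in number 1 and its lowest in number 5, 0.56 apart (adjusted p = 0.645 in limma). The 4 mice numbered 3 and the 4 numbered 5 were all below their group means, and 3 of 4 numbered 1 were above.

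Per1 went the other way. It stood at 4.17, 4.48, 4.08 and 4.81 in the mice numbered 1, the lowest level of each group, against 5.75, 5.69, 5.79 and 5.18 in those numbered 5 and 5.32, 5.63, 5.67 and 5.55 in those numbered 6. The means of numbers 5 and 1 differed by 1.22, or 2.32-fold (F = 7.07, adjusted p = 0.201 in limma). Without STZ replicate 2, whose level of 6.03 was the highest of all mice, it passed with an adjusted p of 0.0435. Per2 was lowest in number 2, at 4.80, 4.82, 4.58 and 4.85, with 0 of 4 mice above their group mean, and highest in number 6, at 5.77, 5.87, 5.86 and 4.97. Its number means spanned 0.86, or 1.81-fold (adjusted p = 0.389). The low numbers of Per1 and Per2 were thus 1 and 2 in turn.

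Nr1d2 stood at 7.86, 7.55, 8.66 and 8.17 in the mice numbered 1, each below its group mean, and at 8.46, 8.87, 9.28 and 8.65 in those numbered 5, each above it. These means differed by 0.76, or 1.69-fold (F = 5.22, adjusted p = 0.384 in limma). Nr1d1 had its highest mean in number 2, where all 4 mice were above their group means, and its lowest in number 6, at 5.69, 6.08, 5.18 and 6.30. Its number means also spanned 0.76, or 1.70-fold (F = 3.91, adjusted p = 0.567). Dbp, a target of the activators whose protein binds the D-box, was low in all 8 mice numbered 1 or 2 and high in all 8 numbered 5 or 6 relative to their groups, with a span of 2.15, or 4.44-fold (F = 12.3, adjusted p = 0.0266). Its call was lost in 14 of 24 cases when 1 mouse was left out, with adjusted p-values up to 0.106, and in 6 of 11 other settings, with adjusted p-values up to 0.535 (no group term).

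**Figure D4:**
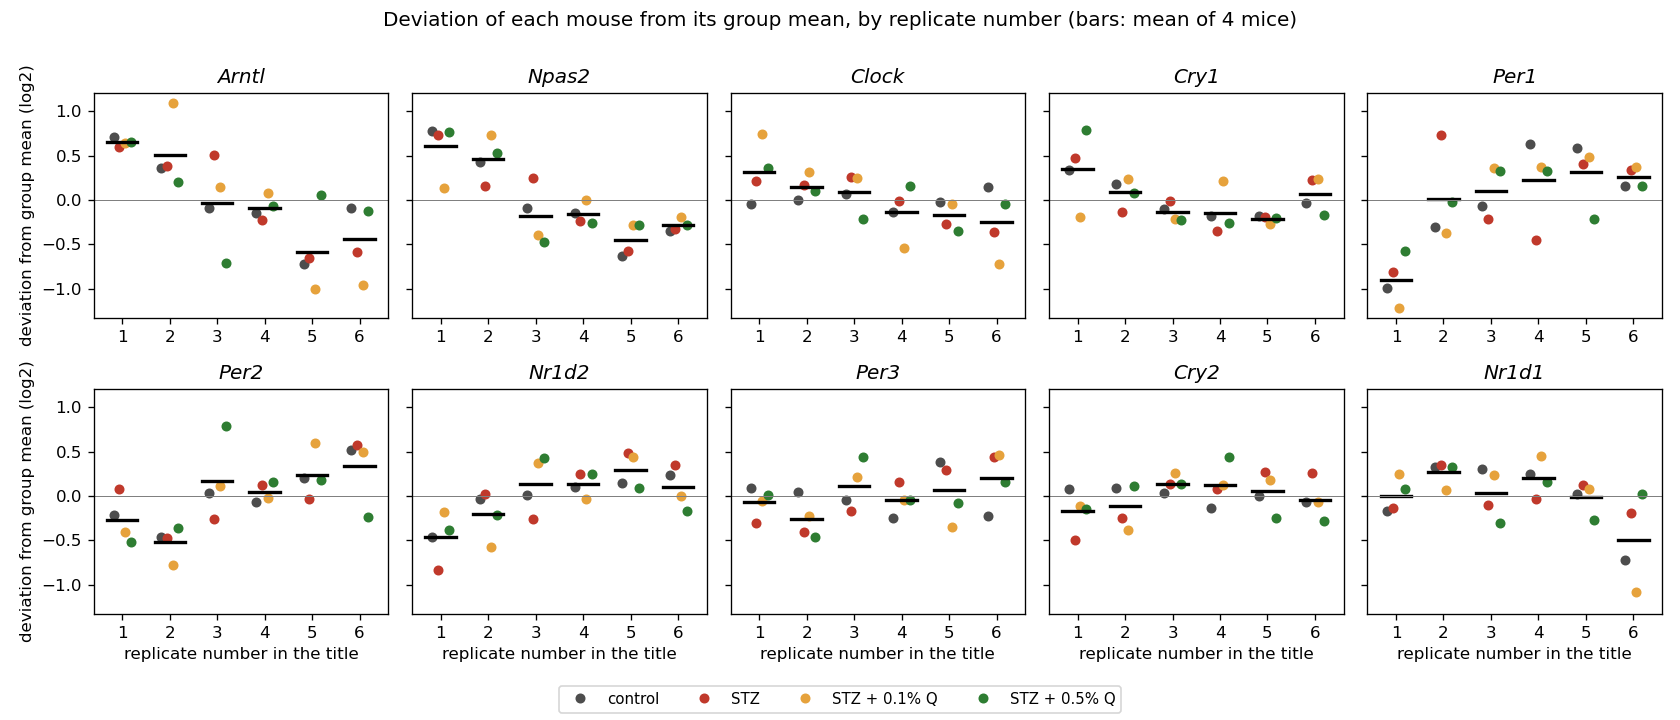
Deviation of each mouse from the mean of its group, in log2 units, by replicate number for the 10 clock genes (points, coloured by group; Q, quercetin), with bars at the mean of the 4 mice of a number. Arntl and Npas2 lie above 0 in all mice numbered 1 or 2, Per1 and Nr1d2 lie below 0 in all mice numbered 1, and Cry2 means span 0.31.

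Mean Gapdh 3' minus 5' differences of the 6 numbers lay between -0.26 and -0.19, a span of less than the SD within any number. Of the markers of hepatocytes, Kupffer cells, B cells, endothelial, stellate, bile duct and pancreatic cells, 0 passed for replicate number in limma. Over all genes 0.0458% passed, so this count cannot show whether cell types differed between numbers. What the number marks is not stated, so that a time of day, a day, a cage and an order of processing cannot be told apart.

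Clock genes also varied together from mouse to mouse. Over the 24 mice, after removal of group means, 14 of 45 gene pairs passed at an adjusted p under 0.05 (permutation test of Pearson's r, mice shuffled within groups, two-sided), 6 with a positive and 8 with a negative r. Arntl rose and fell with Npas2 (r = 0.82, rho = 0.79, permutation p = 1e-05, the smallest that the resamples allow, adjusted p = 0.000225) and with Clock (r = 0.65, rho = 0.67, permutation p = 0.00864, adjusted p = 0.0278). Npas2 went with Cry1 (r = 0.74, rho = 0.65, permutation p = 0.00014, adjusted p = 0.00126). Arntl and Npas2 ran opposite to Per1, Per2 and Nr1d2, with all 6 of these pairs among the 14. Pairs of other genes were not counted, and the shuffling took no account of replicate number. Among the r of all genes tested with Arntl, Npas2 stood at the 99.9th percentile, Clock at the 99.0th, Cry1 at the 94.9th and Nr1d1 at the 89.4th. Per2 stood at the 0.05th, Nr1d2 at the 0.12th, Per1 at the 0.56th, Per3 at the 3.48th and Cry2 at the 5.95th. The r of Npas2 with Nr1d2 was -0.87 (rho = -0.87, permutation p = 1e-05, adjusted p = 0.000225), that of Arntl with Per2 was -0.81 (rho = -0.77, permutation p = 6e-05, adjusted p = 0.000675) and that of Arntl with Nr1d2 was -0.77 (rho = -0.77, permutation p = 3e-05, adjusted p = 0.00045).

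Cry1 and Per1, whose promoters both hold the E-box shown above, had an r of -0.42 (rho = -0.33, permutation p = 0.0376, adjusted p = 0.0797), which did not pass, and the r of Cry1 with Nr1d2 was -0.68 (rho = -0.74, permutation p = 0.00037, adjusted p = 0.00244). Nr1d1 had an r of -0.05 with its paralog Nr1d2 (rho = -0.08, permutation p = 0.817, adjusted p = 0.861). Of the 14 pairs, it was in 1, with Per2, at r = -0.56 (rho = -0.57, permutation p = 0.00795, adjusted p = 0.0275). Per3 was in 0 of the 14 pairs, and Cry2 was in 1, with Nr1d2 (r = 0.67, rho = 0.60, permutation p = 0.00251, adjusted p = 0.00941), although r was -0.65 within the controls alone.

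Leaving out the 2 mice farthest from the median of the first gene kept the sign of r in 14 of 14 pairs. For Arntl with Npas2 it was then 0.81, for Npas2 with Nr1d2 -0.86, for Arntl with Per2 -0.73 and for Cry2 with Nr1d2 0.46. With the means of the replicate numbers removed as well, the sign was kept in 14 of 14 pairs, and r was 0.40 for Arntl with Npas2, -0.73 for Npas2 with Nr1d2, -0.66 for Arntl with Per2, -0.25 for Npas2 with Per2 and 0.66 for Npas2 with Cry1. Within each of the 4 groups the sign was the same in 12 of 14 pairs. For Npas2 with Nr1d2 r was -0.89 in controls, -0.98 in STZ mice, -0.95 with 0.1% and -0.83 with 0.5% quercetin. The exceptions were Cry2 with Nr1d2 and Arntl with Clock, whose r was -0.06 in controls and 0.97 in STZ mice.

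**Figure D5:**
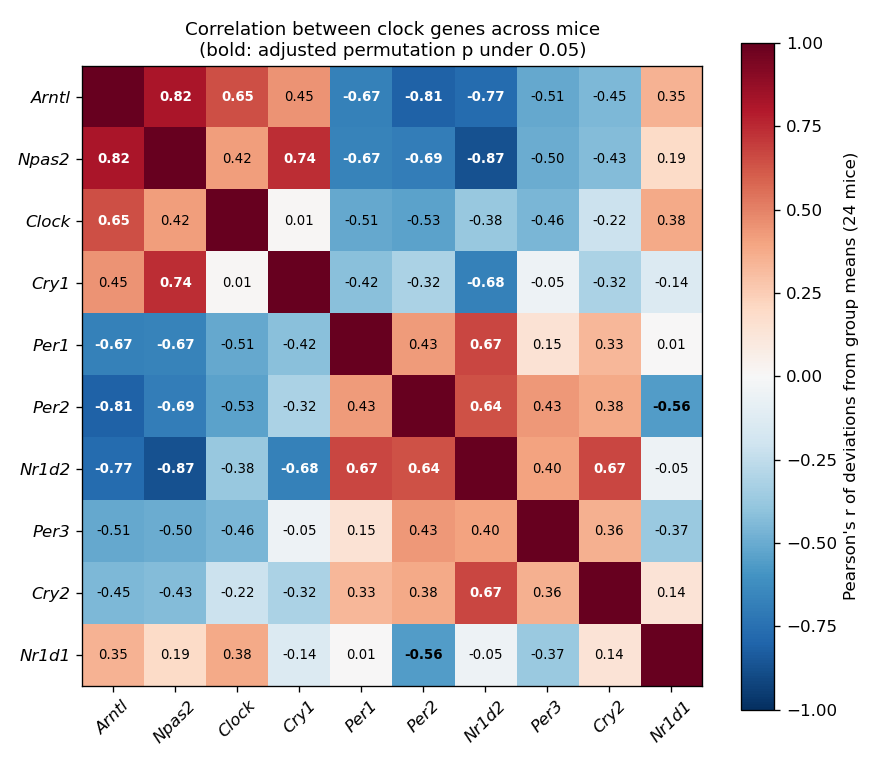
Pearson's r between the deviations from group means of each pair of clock genes over 24 mice, from -1 (blue) to 1 (red), with values in bold where the permutation p adjusted over 45 pairs was under 0.05. Arntl, Npas2 and Cry1 oppose Nr1d2, as at r = -0.87 for Npas2, and Nr1d1 is near 0 with Nr1d2.

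Several genes were read by more than 1 probe set, and these did not always run together. Arntl had 2, Clock 4, Npas2 2, Per2 3, Per3 6 and Nr1d2 2, and the others 1. The brightest represented the gene in all values above. The r of the second probe set with it, over the 24 arrays, was 0.83 for Npas2, 0.46 for Arntl and 0.22 for Nr1d2. For Clock the others had r of 0.72, 0.31 and 0.16, for Per2 0.66 and 0.68, and for Per3 between 0.004 and 0.59. The second probe set of Arntl differed by 0.00 between 0.1% quercetin and STZ, against -0.67 for the first. The second of Nr1d2 differed by 0.35 between 0.1% quercetin and control, against 0.53. That of Clock, with a mean level of 6.12 beside 6.23 for the first, differed by -0.02 between STZ and control, against 0.22. Of the 23 probe sets, 21 lay above the filter, 1 each of Npas2 and Per3 being below it.

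Partners of the loop were examined as a list, of which 14 genes were tested and Rorb and Arntl2 were under the filter. In limma 0 of 14 passed for STZ against control (3.72% of all genes), for either quercetin dose against STZ and between the doses (0% each) and for 0.5% quercetin against control (0.13%). For 0.1% quercetin against control 3 of 14 passed, against 5.57% of all genes. Nfil3, which represses D-box genes, had a lowest, median and highest level of 6.70, 6.83 and 7.57 in controls and 5.49, 5.95 and 7.01 with 0.1% quercetin, and 5 of 6 mice of the latter lay below all controls. It fell by 0.90 (SE 0.21, adjusted p = 0.0113).

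Usp2, a deubiquitinase under clock control, had 4.56, 5.02 and 5.43 in controls and 4.81, 6.48 and 7.43 with 0.1% quercetin, with 5 of 6 mice above all controls, and rose by 1.39 (SE 0.38, adjusted p = 0.0285 in limma). Ciart, a repressor of the activator complex, lay near the floor in controls, at 4.04, 4.09 and 4.17, and at 4.05, 5.22 and 5.62 with 0.1% quercetin. It rose by 0.90 (SE 0.25, adjusted p = 0.0287), also with 5 of 6 mice above all controls. With the Gapdh covariate the adjusted p was 0.225 for Nfil3, 0.464 for Usp2 and 0.474 for Ciart. With a constant of 1 the calls of Usp2 and Ciart were lost as well (adjusted p = 0.0644 and 0.0688 in limma). Leaving out 1 mouse lost the call of Nfil3 in 0 of 24 cases. It lost that of Ciart in 7, without control replicate 1, 2 or 3 or 0.1% quercetin replicate 3, 4, 5 or 6, and that of Usp2 in 5, without control replicate 1 or 2 or 0.1% quercetin replicate 3, 5 or 6. The highest adjusted p-values were 0.0893 and 0.0897. The F test over the 4 groups passed for Nfil3 (adjusted p = 0.0484) and was lost in 19 of 24 such cases, with adjusted p-values up to 0.12. It was also lost in 7 of 11 other settings, with adjusted p-values up to 0.360. For replicate number 0 of 14 passed, against 0.0458% of all genes. At an unadjusted p under 0.05 in limma 2 of 14 were counted, against 6.33% of all genes. Nfil3 was 1 of them (F = 8.98, adjusted p = 0.104), with 71.6% of its within-group sum of squares between numbers.

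Of the list of output genes, 9 were tested. Cdkn1a, a cell cycle inhibitor that is also a p53 target, rose by 3.13 in STZ mice (SE 0.50, adjusted p = 0.00063 in limma) and by 2.51 with 0.1% quercetin against control (adjusted p = 0.00308). With 0.5% quercetin it differed from control by 1.67 and did not pass (adjusted p = 0.153). Levels there ran from 4.72 to 9.29, with 4 of 6 mice above all controls and 1 below them all. Replicates 5 and 6 of that group stood at 5.01 and 4.72, beside 4.85 to 6.04 in controls and 8.40 to 8.91 in STZ mice. The cause of this split was not tested. With the Gapdh covariate both calls were lost, at 2.52 (adjusted p = 0.136) and 1.95 (adjusted p = 0.181). Alas1, the first enzyme of haem synthesis, rose by 1.87 with 0.1% quercetin against control (SE 0.56, adjusted p = 0.0473), a call lost in 15 of 24 cases when 1 mouse was left out (adjusted p up to 0.138). It was also lost in 9 of 12 other settings, among them the Gapdh covariate (1.23, adjusted p = 0.487), the values as deposited (adjusted p = 0.0815) and the mean of all probe sets (1.26, adjusted p = 0.0854). No output gene passed for quercetin against STZ, where 0% of all genes did. For replicate number 1 of 9 passed, Dbp, against 0.0458% of all genes, and 5 of 9 were under an unadjusted p of 0.05 in limma (6.33%).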

How the data were processed

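Liver RNA of 24 mice was labelled as cRNA for 3' expression arrays, per the labels' protocols. The authors deposited 1 linear intensity per probe set and array; the summary algorithm and any scaling are not given in the sources used here. The intensities were quantile normalized and taken as log2(value + 16), which understates folds near the floor. Of the probe sets, 34958 list 1 symbol, 932 several and 9211 none. Each gene was represented by its brightest single-symbol probe set at or above the 40th percentile, leaving 13114 genes. Groups came from titles. limma 3.58.1 in R 4.3.3 fitted all 24 arrays with 4 group means, or with group and replicate number, two-sided, with Benjamini-Hochberg adjustment over all genes and a threshold of 0.05. The fit was tested on simulated data. Correlations used 100000 within-group permutations (numpy 2.4.6).

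Members, lists and the replicate number comparison were chosen with earlier results of these data known. Named genes were all 10 members, listed partner and output genes that passed in a comparison described, and, for likeness, the 5 highest and 5 lowest correlations with Arntl and the 5 highest with Nr1d1. Alternatives were other scalings, constants, filters and probe set rules, a Gapdh covariate, the 2 groups alone, a replicate block, and mice left out. The number of arrays limits the precision.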

Additional observations from a re-analysis of the deposited data

Results flagged for a closer look

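In 2 of the 40 sets of 6 mice (10 clock genes in 4 groups), 1 mouse stood apart by Dixon's criterion, which chance alone meets in about 1 of 20 sets. The level of Cry1 in 0.5% quercetin replicate 1 was 5.94, with the other 5 mice between 4.90 and 5.22, a gap of 0.686 of the whole range. The level of Nr1d1 in 0.1% quercetin replicate 6 was 5.18, with the others between 6.33 and 6.71, a gap of 0.751 of the range. Both mice bear on results given above. Without the former, Cry1 passed the F test over the 4 groups (adjusted p = 0.0348 in limma) while Cry2 did not (adjusted p = 0.077), and without the latter Nr1d1 differed between 0.1% quercetin and STZ by 0.20 instead of -0.01, uncalled in both cases.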

How the results depend on the processing

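The count of clock genes called stayed at 0 for STZ against control, for each quercetin dose against STZ and between the doses under every alternative run. For 0.1% quercetin against control it was 1 (Nr1d2) with the mean of all probe sets (adjusted p = 0.0489 in limma), 1 with the replicate block (adjusted p = 0.0323) and 0 to 1 with 1 mouse left out. For 0.5% quercetin against control it was 1 (Cry2) with median scaling (adjusted p = 0.0279). For any difference among the groups it was 0 on the values as deposited, with log2(value + 1), with no filter, with the Gapdh covariate and without 0.5% quercetin replicates 5 and 6 together, and 0 to 1 with 1 mouse left out. For replicate number it was 0 on the values as deposited, with a constant of 1 or 64, no filter, the filter at the 60th percentile (Npas2 was then not tested), the mean of all probe sets, no group term, or without 0.5% quercetin replicates 5 and 6, and 0 to 2 with 1 mouse left out. The cause of these changes was not tested, beyond the fewer mice or the other set of genes tested.

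Of the differences, 50 values in 5 genes reversed, and 0 of them belonged to a called result. With the Gapdh covariate the log2 difference of STZ from control was -0.18 for Per2 and -0.10 for Nr1d2, and that of 0.5% quercetin from STZ was 0.0089 for Per2 and -0.0391 for Nr1d1. For 0.1% quercetin against STZ, Per1 was -0.0145 as deposited, -0.000472 with median scaling and -0.18 with a constant of 1, and Nr1d1 was 0.0091 with a constant of 64. For 0.5% quercetin against STZ, Per3 was -0.0226 as deposited, -0.000154 with median scaling and -0.00197 without 0.5% quercetin replicates 5 and 6. Nr1d1 was -0.11 as deposited and -0.0925 with median scaling, and Per2 was 0.0285 with the mean of all probe sets. With 1 mouse left out, STZ minus control ranged from -0.0755 to 0.29 for Per1, -0.0752 to 0.14 for Per2 and -0.0289 to 0.24 for Nr1d2. For 0.1% quercetin minus STZ the ranges were -0.15 to 0.25 for Per1, -0.0554 to 0.22 for Per2 and -0.11 to 0.20 for Nr1d1, and for 0.5% quercetin minus STZ they were -0.0633 to 0.25 for Per1, -0.24 to 0.0289 for Per2, -0.0727 to 0.11 for Per3 and -0.0581 to 0.0756 for Nr1d1.

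Over all genes, calls ranged from 6 to 687 for STZ against control (main 488), from 4 to 894 for 0.1% quercetin against control (731), from 0 to 686 for 0.5% quercetin against control (17), from 4 to 664 for any difference (431) and from 0 to 6 for replicate number (6). With 1 mouse left out the ranges were 241 to 548, 439 to 816, 1 to 147, 254 to 527 and 0 to 12. The 6 calls for STZ against control and the 4 for any difference were those with the Gapdh covariate, which itself differed between groups. What part RNA integrity had in the loss of the other calls was not tested.

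Same-numbered mice of the groups compared had correlations of their deviations over genes from -0.14 to 0.32. At most 2 of 6 pairs exceeded 0.1, so the numbers were not taken as a pairing. That rule covers all genes, whereas most clock genes varied with the number, and the intervals given above are without the block. With the block the SE was 0.13 instead of 0.25 for Npas2 and 0.20 instead of 0.31 for Arntl, and 0.13 either way for Cry2. For 0.1% quercetin against STZ, Npas2 and Arntl did not pass with the block either (adjusted p = 0.663 and 0.675 in limma). The replicate block moved no count of clock genes other than that of 0.1% quercetin against control. In that comparison the adjusted p of Alas1 with it was 0.0558 in limma, and the output gene Tef passed (adjusted p = 0.0185). For any difference among the groups Dbp (adjusted p = 0.0246) and Tef (adjusted p = 0.0304) passed with the block and not without it.

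Settings for the spread and the correlations were chosen after seeing the data. The median share of the clock genes' spread lying between replicate numbers was 45.5% on the values as deposited and 64.4% without 0.5% quercetin replicates 5 and 6. Levels of Npas2, Per3 and Ciart lay near the floor, where low signal limits the size of a difference.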

Other observations

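Genes outside the clock whose deviations from group means over the 24 mice were most like those of Arntl were Rnf125, a ubiquitin ligase (r = 0.89), Nfil3 (r = 0.89), Acss2, which makes acetyl-CoA from acetate (r = 0.88), Bcl3, a cofactor of NF-kappaB (r = 0.88), and Ccng2, a cyclin of quiescent cells (r = 0.87). Most opposed to it were Hnrnpd, which binds AU-rich RNA (r = -0.88), Gne, of sialic acid synthesis (r = -0.85), Bnip3, a mitophagy receptor (r = -0.84), the kinase gene Pim3 (r = -0.83) and 4931408D14Rik (r = -0.82). These are the extremes of 13114 genes and are given without a test. With the means of the replicate numbers removed, r was 0.82 for Rnf125 and for Acss2, 0.69 for Nfil3, -0.72 for Hnrnpd and -0.50 for Pim3.

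Genes most like Nr1d1 were Hjv, a co-receptor in the control of hepcidin (r = 0.78), Eps8l2 (r = 0.78), Sema4a (r = 0.75), Arhgef12 (r = 0.73) and Fzd10 (r = 0.71). Without the 2 mice farthest from the Nr1d1 median these were 0.65, 0.67, 0.64, 0.40 and 0.46.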
